A study of Papilio xuthus with 16 samples.

Results

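The third instar epidermis of *Papilio xuthus*, a swallowtail butterfly, was followed from the intermolt through the molt to the fourth instar on 6 of the 16 arrays of the study. The members were chosen by their stage and instar labels, and each array held 1 stage: the intermolt (day 2 of the third instar) and 0, 4, 8, 11 and 16 h after head capsule slippage (HCS), the moment when the old head capsule moves forward and the molt becomes visible. Larvae of the third instar carry the mimetic pattern, a black and white marking that resembles a bird dropping. On every array the white region (abdominal segments 2 to 4) was labelled with Cy3 and the black region (abdominal segments 4 and 5) with Cy5. The larvae carried no transgene and received no treatment, were bought, provided by a university laboratory or collected in the field, and were reared on leaves of *Zanthoxylum ailanthoides* under long days. The sources do not give how many larvae were pooled on an array. With 1 array per stage, stage and array cannot be told apart, and without a dye swap dye and region cannot be told apart either.

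A molt is driven by a pulse of ecdysteroid hormone. Its receptor switches on a short series of nuclear receptors and transcription factors, such as E75, HR3 and FTZ-F1, each with its own window in time. The single layer of epidermal cells then detaches from the old cuticle, dissolves the inner part of that cuticle with chitinases and proteases, and secretes a new cuticle from the outside inwards, with the outer layers and surface structures first and the chitin-rich layers later. Cuticular proteins, most of which bind chitin, make up much of that new cuticle, and the pigments of the next pattern are laid down in it before the old skin is shed.

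Genes were read through oligonucleotides of 60 bases, and 8 of them are shown because the time course turns on their genes. Each lies wholly within the coding sequence, is written from 5′ to 3′, and has in capitals the longest run that it shares with a probe of another gene, among the 795 or 796 probes of other genes with a sequence at hand.
osiris 9E: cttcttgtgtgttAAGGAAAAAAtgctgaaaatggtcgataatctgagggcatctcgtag
osiris 18: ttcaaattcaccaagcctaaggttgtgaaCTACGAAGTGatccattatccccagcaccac
PxutCPT3: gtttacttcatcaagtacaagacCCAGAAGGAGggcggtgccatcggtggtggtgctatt
PxutCPG7: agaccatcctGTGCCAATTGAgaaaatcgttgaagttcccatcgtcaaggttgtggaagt
PxutCPG11: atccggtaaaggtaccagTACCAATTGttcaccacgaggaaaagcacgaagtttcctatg
PxutCPR32: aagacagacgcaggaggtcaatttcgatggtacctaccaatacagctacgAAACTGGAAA
PxutCPG4: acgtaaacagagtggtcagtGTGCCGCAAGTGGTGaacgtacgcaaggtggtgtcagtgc
takeout/JHBP AK401191: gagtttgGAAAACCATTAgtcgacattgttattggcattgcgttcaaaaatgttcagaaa
The shared runs were 9 to 15 bases long. The longest joined the PxutCPG4 probe to a probe of PxutCPG3, another cuticular protein of the same glycine-rich group, and the run of the osiris 18 probe was shared with osiris 9D.

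Of the 15208 probes on each array besides control spots, 8697 belong to *P. xuthus*. They represent 3380 sequences, called genes here, each read by 1 to 22 probes (median 2), and 470 of the genes had a name. The level of a gene at a stage is the mean of the processed signals of both channels, averaged over its probes after all channels had been scaled to the same 75th percentile, in arbitrary units. Levels of different genes come from different probes and are not compared. By the scanner software, 78.8% to 88.5% of the probes were well above background in a channel, and the lowest signal that passed lay between 22.7 and 45.0 by stage. A level under it is only a bound. The channels were multiplied by 0.941 to 1.295 for the scaling, and 4 spots, all in the black channel at 8 h, were saturated. The arrays of the intermolt, 0, 4 and 16 h shared 1 slide, and those of 8 and 11 h lay on the other. The main tests and the calls of rises and falls were therefore made within a slide. Counts by the stage of the highest level, and courses that set 8 or 11 h beside the other stages, cross the slides. In these, stage and slide cannot be told apart. Between white and black the median absolute log2 difference per gene was 0.15 to 0.19 at the intermolt, 0, 4 and 16 h, 0.21 at 8 h and 0.33 at 11 h.

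The first comparison asked which genes set the intermolt epidermis apart from the molting epidermis, with the arrays of 0, 4 and 16 h as the molt. The median levels of the cuticular, Osiris and apical matrix lists were below those of the molt stages, those of redox enzymes and protein turnover were above them by more than the median gene, and no single gene passed the test. Of 3248 genes tested with limma, 0 passed an adjusted p under 0.05 (0.0%), and the lowest adjusted p was 0.748. An unadjusted p under 0.05 was reached by 150 genes (4.62%). The spread in this test is the spread between the 3 molt stages, so a gene that peaked within the molt had a large error, and the single intermolt array was assumed to vary like the others. The residual degrees of freedom were 2. The median log2 difference of all genes, intermolt minus molt, was 0.47, and 68.5% of the genes had a positive difference, so each list below has to be read against that value.

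By the measured levels alone, 222 genes (6.83%) lay 2-fold or more above each of 0, 4 and 16 h in both channels and 119 genes (3.66%) lay 2-fold or more below each. The gene lists hold only genes with a name at hand and are not whole families. The paper describes more cuticular protein and takeout/JHBP genes than are listed here. Of the 62 listed cuticular protein genes, 15 lay below all molt stages and 3 above. Their median log2 difference was -3.66, with 42 negative and 20 positive values, and 15 of the 62 were not well above background in the intermolt, where their level is a bound. The medians were -6.27 for the 5 CPT genes (tweedle), -4.23 for the 21 CPG genes (glycine-rich) and -4.25 for the 6 CPH genes (hypothetical cuticular proteins). They were -4.75 for the 2 listed CPFL genes and -2.36 for the 28 CPR genes, which carry the chitin-binding Rebers and Riddiford motif. All 9 Osiris genes had a negative difference, with a median of -5.02, and 4 of them were not well above background there. The medians of the other lists described below were -5.64 for the apical matrix, -2.32 for chitin and the digestion of old cuticle, -1.32 for bilin binding proteins and YRG, -0.61 for takeout/JHBP genes, -0.56 for the ecdysone response, -0.54 for proteases and inhibitors, -0.36 for pigment genes, 0.18 for patterning genes and 0.36 for the secretory pathway. With every level under the lowest passing signal of its stage set to that signal, the medians were -3.25 for the 62 cuticular genes, -4.51 for Osiris, -4.03 for the apical matrix, -0.72 for bilin binding proteins and YRG, and 0.44 for all genes. The 62 cuticular genes, the markers of the labelled tissue, were all well above background in at least 1 stage.

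PxutCPG20 had the cuticular difference with the smallest error for its size. Its level was 32.3 in the intermolt and 30251, 100171 and 6265 at 0, 4 and 16 h, so that every molt stage lay far above the intermolt (log2 difference -9.69 ± 1.80 SE, 95% confidence interval -14.92 to -4.46, limma adjusted p = 0.748). The intermolt level of PxutCPG20 lay under the lowest passing signal of that stage (35.6), so the level is a bound and the difference rests on it. PxutCPH30 stood at 252 in the intermolt and at 4744, 11122 and 23556 at 0, 4 and 16 h (-5.42 ± 1.11). The basement membrane protein collagen type IV was measured at 5567 in the intermolt and at 28715, 37022 and 43538 in the molt, a difference of -2.69 ± 0.55 with little variation among the molt stages. Its partner sparc, which binds collagen IV, had a level of 877 in the intermolt against 2714, 3683 and 4579 (-2.03 ± 0.59). Both are made mainly by fat body and blood cells in the fly, and collagen type IV and sparc were among the markers fixed for these cells. The third such marker, larval serum protein 1 gamma, a storage protein, went the other way, with 1930 in the intermolt, 125 at 0 h, 327 at 4 h, 28.1 at 11 h and 1913 at 16 h, and at 8 h it was well above background in 1 channel only (32.8). The part of these cells in the differences was not tested, and in pieces of tissue fewer cells of a type and less RNA per cell cannot be told apart.

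**Figure D1:**
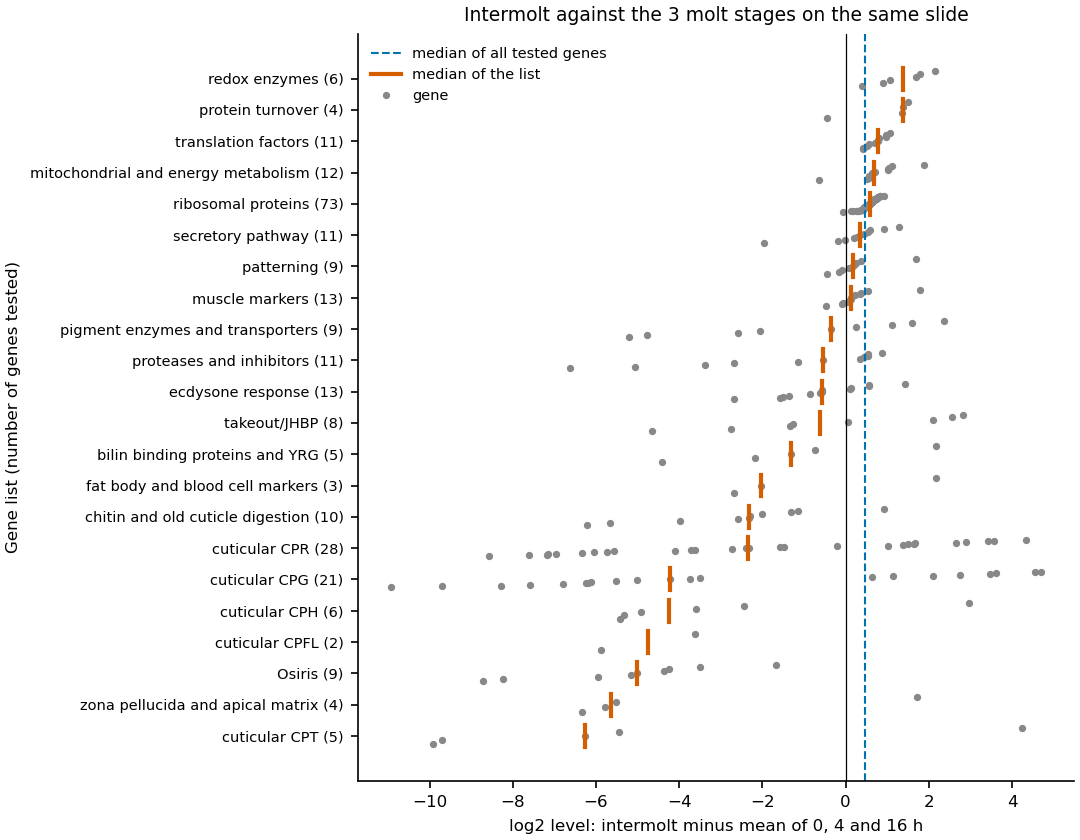
Log2 difference of the intermolt level minus the mean of 0, 4 and 16 h for each gene (grey points) by gene list, with the list's median (orange bar) and the median of all tested genes (dashed line, 0.47). The medians of the cuticular, Osiris and apical matrix lists lie to the left of the dashed line. Those of redox enzymes and protein turnover, 1.38 and 1.37, lie to the right.

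On the other side the differences were smaller. All 6 redox enzymes had a positive difference (median 1.38), and 2 of them lay 2-fold or more above each molt stage. Superoxide dismutase, which removes superoxide radicals, had its highest level in the intermolt (16639) and stood at 6481, 2886, 3533, 3435 and 6105 at 0, 4, 8, 11 and 16 h. Thioredoxin peroxidase 1, which reduces peroxides, went from 9044 to 4438, 2321, 1352, 2111 and 2104 (intermolt minus molt 1.70 ± 0.70). Of the 6 redox enzymes, 4 had their highest level in the intermolt and 2 at 0 h. A glutathione S-transferase-like gene, highest at 0 h, kept levels of 6844 to 21945 up to 11 h and was at 134 at 16 h. Glyceraldehyde 3 phosphate dehydrogenase 2, a glycolytic enzyme, was at 2663 in the intermolt and at 560 to 946 at every later stage (1.88 ± 0.59). Among 12 mitochondrial and energy metabolism genes 11 had a positive difference (median 0.68), and porin, the channel of the outer mitochondrial membrane, was at 53080 in the intermolt and at 18163 to 30730 in the molt.

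All 11 translation factors (median 0.77) and 72 of 73 ribosomal protein genes (median 0.58) had positive differences, with the highest at 1.06 and 0.92. None of either list lay 2-fold or more above or below all 3 molt stages. The list of protein turnover had 3 of 4 genes with a positive difference (median 1.37). A proteasome alpha subunit was measured at 9745 in the intermolt, 5948, 2454, 916 and 1028 at 0, 4, 8 and 11 h, and 2866 at 16 h, so it was lowest in the middle of the molt. The ribosomal proteins are close to the general shift, and scaling the arrays on their probes instead moved the median of all genes from 0.47 to -0.06. Under that scaling the intermolt lay above all molt stages for 82 genes and below for 182, in place of 222 and 119, so the predominance of intermolt-high genes depends on the scaling, whereas the signs of the medians of the 5 cuticular lists, the Osiris, chitin and redox lists were kept under each scaling tried.

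The second comparison followed the molt step by step. A gene is said here to have risen or fallen between a pair of stages where its level changed 2-fold or more in the same direction in both channels and it was well above background in both channels of at least 1 stage. These calls rest on 1 array per stage and have no test. From the intermolt to 0 h 445 of 3142 genes rose (14.2%) and 665 fell (21.2%). From 0 to 4 h 382 of 3190 rose (12.0%) and 454 fell (14.2%), and from 4 to 16 h 619 of 3196 rose (19.4%) and 549 fell (17.2%). On the other slide, 387 of 3178 genes rose from 8 to 11 h (12.2%) and 267 fell (8.4%). The balance of rises and falls changed with the scaling: rises made up 40.1%, 45.7% and 53.0% of the calls of the first 3 steps, 52.7%, 49.2% and 36.2% with no scaling between arrays, and 64.3%, 59.3% and 36.1% with the scaling on ribosomal proteins.

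**Figure D2:**
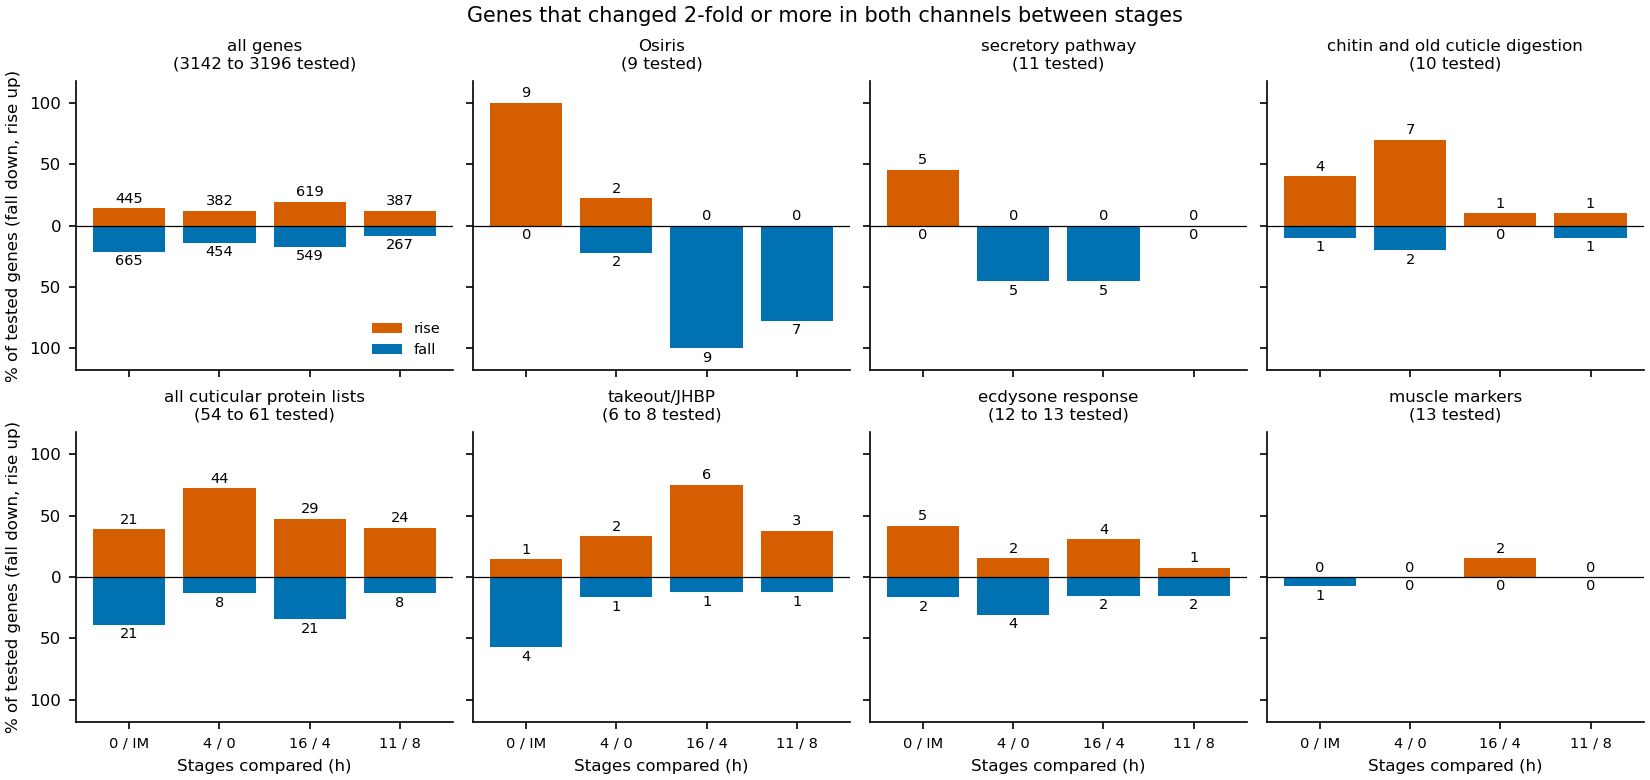
Percentage of genes of each list that rose (orange, upwards) or fell (blue, downwards) 2-fold or more in both channels at each step, with the number of genes above or below each bar. All 9 Osiris genes rose at 0 h and fell from 4 to 16 h, and cuticular protein genes rose most often from 0 to 4 h (44 of 61), while muscle marker genes gave 1 fall and 2 rises in the 4 steps.

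Over the 6 arrays, 2747 of 3278 measured genes moved 2-fold or more in both channels. Their highest level was in the intermolt for 977 genes (35.6%), at 0 h for 434 (15.8%), at 4 h for 192 (6.99%), at 8 h for 304 (11.1%), at 11 h for 452 (16.5%) and at 16 h for 388 (14.1%). These counts cross the slides. With the 4 arrays of 1 slide, 2341 genes moved, and the counts were 957, 468, 343 and 573 at the intermolt, 0, 4 and 16 h. Many of the changes at HCS were followed by the opposite change later. Among 3090 genes tested in both steps, 287 of the 437 that had risen at HCS fell from 4 to 16 h (65.7%, and 56.1% of all that fell in that step), against 16.6% of all genes. Of the 642 that had fallen at HCS, 306 rose from 4 to 16 h (47.7%, and 53.6% of all rises), against 18.5%. No array is shared by these steps. The profile at 16 h was also closer to the intermolt than the profile at 4 h was: the median absolute log2 difference per gene was 0.83 between the intermolt and 16 h, 1.11 between the intermolt and 4 h, and 0.79 between the intermolt and 0 h. The intermolt and 16 h channels had the largest scaling factors (1.18 to 1.295, against 0.94 to 1.01 elsewhere). The part of this in the closeness was not tested. Overlaps between steps, here and below, and these distances were computed under the main scaling only. With no scaling between arrays 413 genes rose from 4 to 16 h, in place of 619.

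The steps on both slides overlapped in direction. Of 600 genes that rose from 4 to 16 h, 217 also rose from 8 to 11 h (36.2%, and 57.6% of the rises on the other slide), against 12.1% of all 3125 genes tested in both. Of 524 genes that fell, 168 fell there too (32.1%, and 65.6%), against 8.19%.

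**Figure D3:**
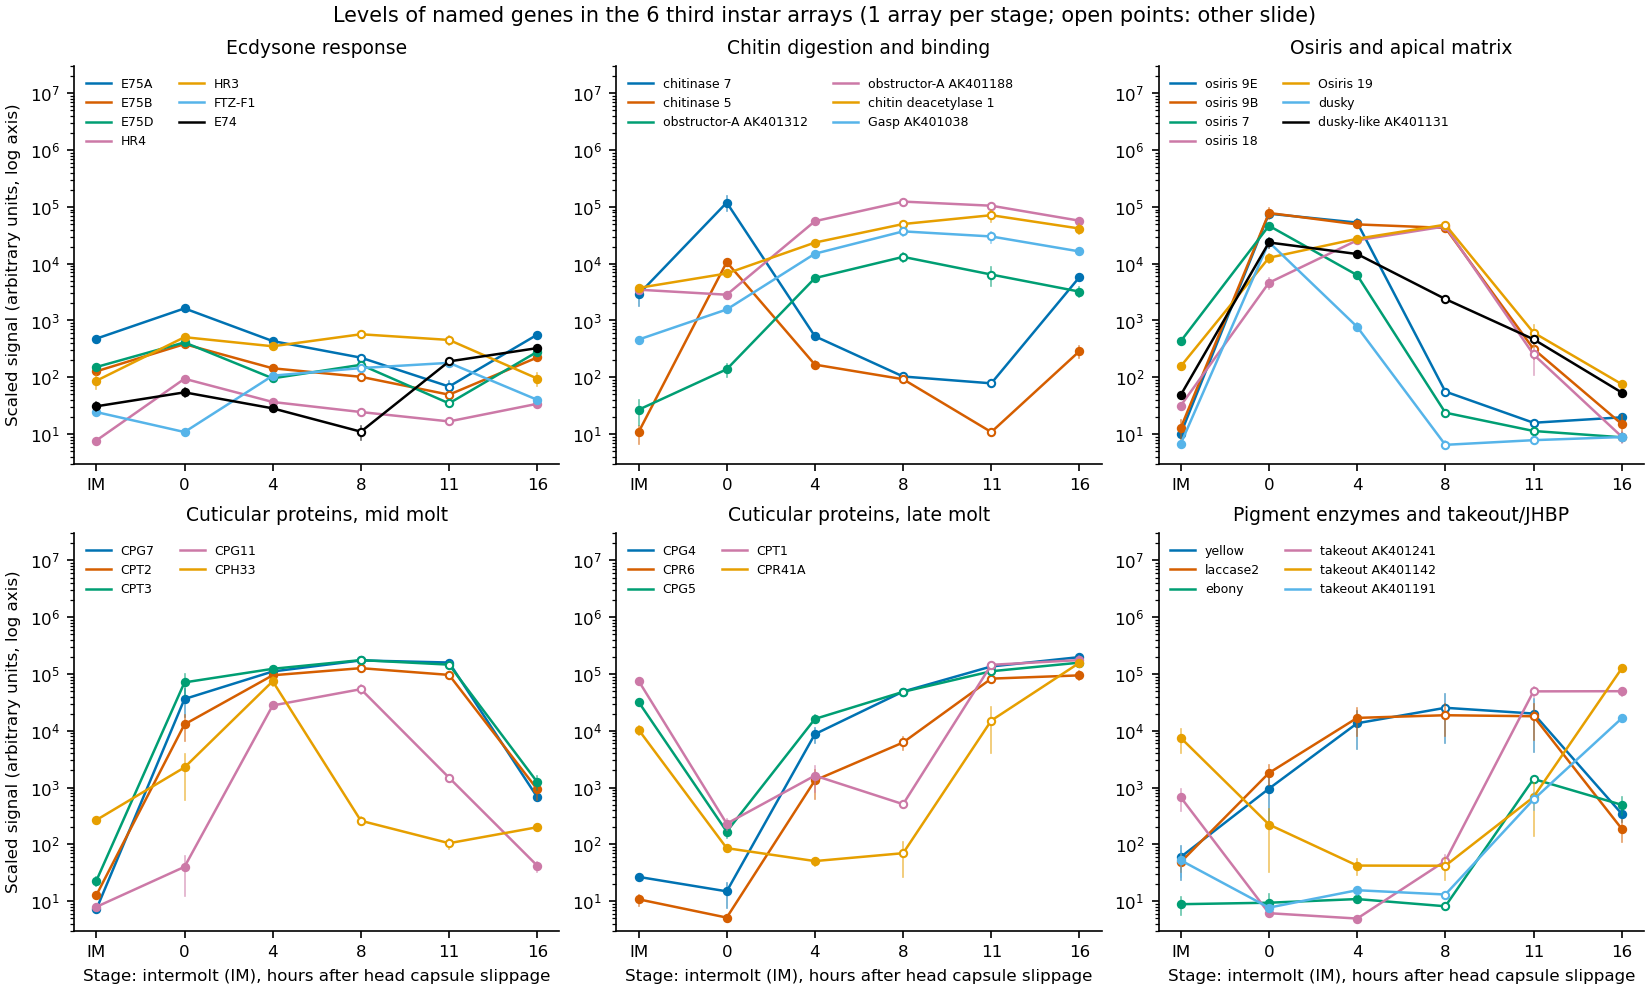
Levels of named genes (scaled signal in arbitrary units, log axis) by stage on the 6 arrays, with 1 array per stage, bars from the white to the black channel, and open points for the arrays of the other slide. Chitinases, osiris 7, osiris 9E and dusky peak at 0 h, CPG7, CPT2 and CPT3 stay high from 4 to 11 h, and CPR41A and 3 takeout/JHBP genes are highest at 16 h. Signals under about 23 to 45 are not measured levels, and levels of different genes are not comparable.

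Genes of the ecdysone response peaked at different stages. E75A, E75B and E75D are forms of a nuclear receptor that ecdysone induces directly. The level of E75A was 479 in the intermolt, 1633 at 0 h, 434 at 4 h, 222 at 8 h, 68.7 at 11 h and 563 at 16 h, with its peak at HCS and its lowest value at 11 h. E75B followed with 127, 384, 144, 102, 49.4 and 223, and E75D with 151, 411, 95.8, 166, 34.7 and 281. All 3 forms rose at HCS (3.41-fold, 3.02-fold and 2.71-fold) and fell again by 4 h (3.76-fold, 2.67-fold and 4.29-fold), and E75D rose 2.94-fold from 4 to 16 h. HR4, another receptor induced by ecdysone, was not well above background in the intermolt (7.70) or at 11 h (16.7), was highest at 0 h (94.1), and stood at 36.7, 24.4 and 34.1 at 4, 8 and 16 h. Its level was at least 2.65-fold higher at 0 h than in the intermolt.

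HR3 stayed high up to 11 h, and FTZ-F1 rose only after 0 h. HR3, the receptor that follows E75 and activates FTZ-F1 in the fly, had 86.8 in the intermolt, 508 at 0 h, 352 at 4 h, 572 at 8 h, 454.5 at 11 h and 94.99 at 16 h. It was high from 0 to 11 h and low at both ends, with a rise of 5.86-fold at HCS and a fall of 3.70-fold from 4 to 16 h. FTZ-F1, a competence factor expressed after the hormone declines, was at 24.4 in the intermolt, not well above background at 0 h (10.8), and at 107, 145, 180 and 40.1 at 4, 8, 11 and 16 h. It rose at least 4.18-fold from 0 to 4 h and fell at least 2.37-fold from 4 to 16 h. E74, an ETS factor induced by ecdysone, was not well above background in the intermolt or at 8 h, and was at 54.2, 28.4, 190 and 326 at 0, 4, 11 and 16 h, so its high levels fell in the late molt. E74 was read by a single probe.

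The receptor itself moved little. Ecdysone receptor A ranged from 50.1 to 87.4 over the 6 stages and ecdysone receptor B1 from 21.3 to 33.0, close to the detection limit. Kruppel homolog 1, a target of juvenile hormone, lay between 57.6 and 151, with its highest level at 16 h, and cryptocephal, the ATF4 homolog, between 15521 and 32499. HR38 was near background throughout (7.38 to 37.2), and broad-complex was not well above background in both channels at any stage. The enzyme 3-dehydroecdysone 3b-reductase, which converts the secreted prohormone to ecdysone, was high in the intermolt (63878), fell to 14081 at 0 h, stood at 8728 at 4 h and 47132 at 8 h, and reached 107984 and 110238 at 11 and 16 h. In the early stages its black to white ratio was 0.75 to 0.99, and at 8, 11 and 16 h it was 2.32, 5.01 and 3.00. Of 12 tested genes of this list, 5 rose at HCS and 2 fell, beside 14.2% and 21.2% of all genes, and with normexp 3 rose and 1 fell.

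Both chitinases, an inhibitor of serine proteases and oviductin had a sharp peak at HCS. They were the 2 genes of 10 in the chitin list, and 2 of the 3 among 11 proteases and inhibitors, with their highest level at 0 h. Chitinase 7 was at 2884 in the intermolt, 119192 at 0 h, 528 at 4 h, 103 at 8 h, 78.2 at 11 h and 5808 at 16 h. The level at 0 h was 41.3-fold above the intermolt and 226-fold above 4 h, so the peak was confined to 1 of the 6 stages sampled. Chitinase 5, the main molting chitinase of insects, was not well above background in the intermolt, reached 10664 at 0 h, and stood at 167, 92.4 and 288 at 4, 8 and 16 h. It rose at least 300-fold and then fell 63.9-fold. The serine protease inhibitor (AK401042) also peaked at 0 h, with 1459, 63598, 7992, 179, 197 and 1628, and oviductin, a trypsin-like protease, was at 4746 at 0 h, 570 at 4 h and 663 at 8 h and not well above background at the other 3 stages.

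Genes that bind and modify chitin in the new cuticle rose from 0 to 4 h, when 7 of the 10 genes of the chitin list rose and 2, the chitinases, fell (12.0% and 14.2% of all genes). Obstructor-A organizes chitin in the fly. The obstructor-A gene AK401312 was at 138 at 0 h, 5578 at 4 h, 13189 at 8 h, 6441 at 11 h and 3225 at 16 h, and in the intermolt it was well above background in 1 channel only (26.8). The second obstructor-A gene, AK401188, went from 3487 and 2843 to 56047, 124111, 104987 and 57156. Chitin deacetylase 1, which converts chitin to chitosan, stood at 3747, 6729, 23561, 49961, 71455 and 41625 in stage order, and a gene named for a lipoprotein receptor but listed here for its chitin deacetylase match in the fly had 7557, 14964, 43889, 73109, 108593 and 79573. Both therefore built up to 11 h and were still high at 16 h.

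A clip-domain serine protease, of the family that activates other enzymes in cascades, was at 14.8 in the intermolt and at 512, 12637, 3671, 6020 and 475 from 0 to 16 h. It rose at least 14.4-fold at HCS and 24.7-fold by 4 h and fell 26.6-fold from 4 to 16 h. Its difference between intermolt and molt was -6.61 ± 2.38, and the interval of -13.55 to 0.32 held 0. Of the 11 proteases and inhibitors, 5 rose at HCS and 1 fell (beside 14.2% and 21.2% of all genes), and from 4 to 16 h 3 rose, a share not far from that of all genes, and 5 fell (19.4% and 17.2%).

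Osiris genes code for insect membrane or secreted proteins of unknown biochemical role that are expressed in cuticle-forming epithelia. All 9 rose from the intermolt to 0 h and all 9 fell from 4 to 16 h, while at the step between, 2 rose and 2 fell, and from 8 to 11 h 7 of 9 fell (beside 14.2%, 17.2%, 12.0%, 14.2% and 8.4% of all genes). Both counts of 9 were the same with no scaling, the scaling on ribosomal proteins and quantile normalization, and with the normexp background correction 8 of 9 rose at HCS and 9 fell from 4 to 16 h. Osiris 9E was not well above background in the intermolt, was at 76030 at 0 h and 52961 at 4 h, and had dropped to 56 at 8 h. At 11 h it was not well above background, and at 16 h it was so in 1 channel only (19.7). It rose at least 2136-fold. Osiris 9B kept its level longer, with 78262 at 0 h, 49206 at 4 h, 42716 at 8 h and 315 at 11 h, between an intermolt and a 16 h level that were both not well above background.

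The members differed in when they peaked. Osiris 7 was highest at 0 h (46593), with 432 in the intermolt, 6293 at 4 h and 23.8 at 8 h. Osiris 18 went from 31.7 in the intermolt to 4623, 25824 and 45447 at 0, 4 and 8 h and then to 252 at 11 h, so its highest level came at 8 h. Osiris 19 had the same shape, with 156, 12728, 27500, 48630, 612 and 75.7. Osiris 2 was highest at 4 h (2626), and stood at 123, 613, 716 and 85.9 at 0, 8, 11 and 16 h. Of the 9, 5 peaked at 0 h, 1 at 4 h and 3 at 8 h, and 0 at the intermolt, 11 or 16 h.

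Genes of the apical extracellular matrix also rose at HCS. Dusky and dusky-like are zona pellucida proteins that shape the apical surface and its bristles and hairs in the fly. Dusky was at 23973 at 0 h and 774 at 4 h and not well above background at the other 4 stages. Dusky-like AK401131 was at 48.7 in the intermolt, 23652 at 0 h, 14801 at 4 h, 2388 at 8 h, 467 at 11 h and 53.9 at 16 h. The second dusky-like gene, AK402771, was not well above background in the intermolt and peaked at 4 h (2597), with 212 at 0 h, 995 at 8 h, 2067 at 11 h and 85.4 at 16 h. All 4 measured genes of the list rose at HCS and fell from 4 to 16 h, beside 14.2% and 17.2% of all genes. Between intermolt and molt they did not all go the same way: 3 had a negative difference and 1 a positive one (1.72). From 8 to 11 h 2 of 3 rose and 1 fell (12.2% and 8.4%), and the number of rises there varied from 0 to 2 with the scaling.

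Other genes with a peak at HCS were not in a list. Mucin related 89F was at 342 in the intermolt, 81746 at 0 h, 305 at 4 h and 67.8 at 8 h with a rise of 239-fold at HCS and a fall of 268-fold by 4 h. A gene similar to CG4702 of the fly was at 44026 at 0 h, 6123 at 4 h and 709 at 8 h, and not well above background at the other stages. An unknown secreted protein (AK401029) peaked at 4 h with 42057, between 7300 at 0 h and 2059 at 8 h.

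The secretory pathway, which carries cuticular proteins to the apical surface, rose at HCS for 5 of 11 genes, fell for 5 from 0 to 4 h and for 5 from 4 to 16 h, beside 14.2%, 14.2% and 17.2% of all genes. None fell at HCS. Sec61beta, a subunit of the translocon, had levels of 5742, 12789, 5369, 3658, 1871 and 1313 in stage order, so it peaked at 0 h and was lowest at 16 h. The translocon-associated protein gamma subunit had 11427, 34344, 15485, 8850, 4443 and 4073. Heat shock protein cognate 3, the chaperone of the endoplasmic reticulum, went from 48437 to 136620 at 0 h and to 38522, 27865, 22870 and 22458 after that. With the scaling, the number of falls varied from 1 to 6 from 0 to 4 h and from 5 to 9 from 4 to 16 h, and 0 or 1 gene rose from 0 to 4 h.

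The cuticular proteins changed strongly in time, as did the Osiris and apical matrix genes. The median gene of the 62 had a highest level 809-fold above its lowest, against 4.01-fold for all genes (515-fold and 3.72-fold with levels under the lowest passing signal set to it). For Osiris it was 684-fold and for the apical matrix 615-fold. With low levels set to that signal these were 642-fold and 612-fold, above the cuticular value. At 0 h, 21 of 54 tested genes rose and 21 fell, at 4 h 44 of 61 rose and 8 fell, and from 4 to 16 h 29 of 61 rose and 21 fell. Of 60, 24 rose and 8 fell from 8 to 11 h. Beside the shares of all genes (14.2% and 21.2%, 12.0% and 14.2%, 19.4% and 17.2%, 12.2% and 8.4%), these were higher in each step and direction except the falls from 0 to 4 h. The highest level lay in the intermolt for 3 genes, at 0 h for 2, at 4 h for 6, at 8 h for 12, at 11 h for 19 and at 16 h for 20.

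**Figure D4:**
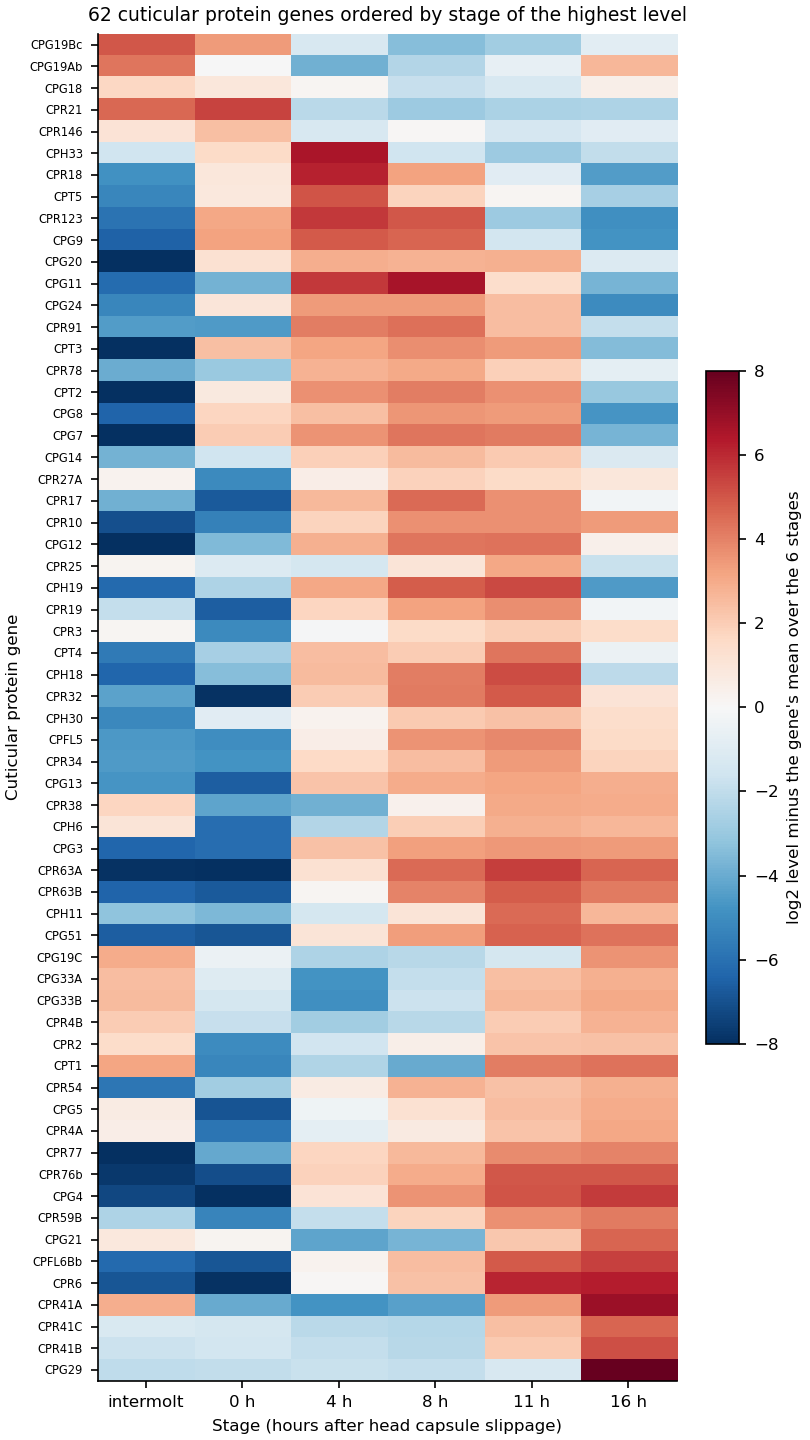
Log2 level of 62 cuticular protein genes at 6 stages, relative to the mean of each gene over the stages (red above, blue below), with the genes ordered by the stage of their highest level. The peak moves from 4 h (6 genes) through 8 h (12) and 11 h (19) to 16 h (20), and 3 genes have theirs in the intermolt. The 8 and 11 h arrays lay on the other slide.

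A first set of cuticular proteins rose at HCS and had fallen again by 16 h. PxutCPG7 was not well above background in the intermolt, stood at 36269 at 0 h and 110743, 173477 and 159208 at 4, 8 and 11 h, and dropped to 678 at 16 h. It was at least 1019-fold higher at 0 h than in the intermolt and fell 163-fold from 4 to 16 h. PxutCPT2 had 12.7 in the intermolt, under the lowest passing signal, and 12970, 94973, 126696, 96425 and 933 from 0 to 16 h. PxutCPT3, a second tweedle protein, had 71132, 123333, 175775, 146087 and 1249 from 0 to 16 h and was well above background in 1 channel only in the intermolt (22.8). The differences between intermolt and molt were -9.69 ± 2.93 for PxutCPT2 and -9.93 ± 3.16 for PxutCPT3, with intermolt levels that are bounds.

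A shorter window was seen for others. PxutCPG11 was at 40.2 at 0 h, 27926 at 4 h, 54032 at 8 h, 1492 at 11 h and 42.1 at 16 h, a rise of 695-fold from 0 to 4 h and a fall of at least 620.3-fold from 4 to 16 h. PxutCPH33 was high at 4 h only (74527), with 2265 at 0 h and 105 to 268 at the intermolt, 8, 11 and 16 h. PxutCPR123 was at 5828, 34792 and 21044 at 0, 4 and 8 h, at 89.7 at 11 h and at 22.7 at 16 h.

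A second set was at or near background at 0 h and high later. PxutCPG4 was well above background in 1 channel only in the intermolt (26.8) and at 0 h (14.9), and then went to 8737, 49091, 135852 and 198401, with a higher level at each later stage. PxutCPR6 was not well above background in the intermolt or at 0 h and stood at 1339, 6224, 82904 and 94588 from 4 to 16 h. PxutCPR63A had the same start, with 5494, 54385, 111342 and 61511. PxutCPR32 was at 174 in the intermolt and, in 1 channel, at 14.5 at 0 h, and then at 14280, 60857, 100640 and 7329. PxutCPR32 was thus measured before HCS as well, mainly in black, and its rise from 0 to 4 h was at least 559.8-fold, and PxutCPR17 rose 633-fold in that step, from 35.7 to 22580. The CPR genes gave 20 of the 44 cuticular rises at this step (20 of 28 CPR genes).

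Another set was high in the intermolt, low at 0 h and high again at the end of the molt. PxutCPT1, a tweedle protein with a course unlike that of PxutCPT2 and PxutCPT3, was at 76022 in the intermolt, 232 at 0 h, 1623 at 4 h, 510 at 8 h, 145094 at 11 h and 175892 at 16 h. It fell 328-fold at HCS and rose 284-fold from 8 to 11 h. PxutCPR41A had 10460, 85.7, 50.8, 69.9, 15146 and 157685, with a rise of 3106-fold from 4 to 16 h. PxutCPG5 fell 193-fold at HCS, from 32298 to 168, but was already back at 16178 at 4 h and reached 158544 at 16 h. PxutCPG33A had 82366, 7207, 534, 3910, 76562 and 106483.

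Across the 53 cuticular genes tested in both steps, 16 of the 21 that rose at HCS fell from 4 to 16 h. The share of falls was 37.7% among the 53 and 16.6% among all genes. Of the 21 that fell at HCS, 14 rose from 4 to 16 h, beside 41.5% of the 53 and 18.5% of all genes. Of 28 that rose from 4 to 16 h, 22 also rose from 8 to 11 h on the other slide, and 0 fell. A few genes followed none of these courses. PxutCPR21 was at 1208 in the intermolt and 2094 at 0 h and not well above background later. PxutCPG19Bc declined from 38259 in the intermolt to 13059 at 0 h and 499 at 4 h, and was at 119 to 678 later. PxutCPG29 was not well above background until 16 h, when it stood at 14846.

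Cytochrome P450 4g15, of the family that makes cuticular hydrocarbons in insects, had a course like that of PxutCPG5. It was at 19002 in the intermolt, 81.2 at 0 h, 10820 at 4 h, 45532 at 8 h, 66532 at 11 h and 33272 at 16 h. It fell 234-fold at HCS and rose 133-fold by 4 h.

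Genes of the pigment list did not move together. At HCS 3 of 8 rose and 3 fell (beside 14.2% and 21.2% of all genes), and from 4 to 16 h 3 of 9 rose and 4 fell (19.4% and 17.2%). Yellow, which is needed for black melanin, was at 59.9, 957, 13564, 25402, 20109 and 346 in stage order. It rose 16.0-fold at HCS and 14.2-fold by 4 h, and fell 39.2-fold from 4 to 16 h. Laccase2, the oxidase that hardens and darkens cuticle, had 48.7, 1808, 16868, 18785, 18030 and 188. Yellow was higher in black than in white at each stage (1.82-fold to 8.56-fold), and laccase2 as well (1.97-fold to 4.31-fold), so the stage means mix unequal channels. Ebony, which diverts dopamine from black melanin, was not well above background up to 8 h and stood at 1419 at 11 h and 497 at 16 h. Its rise from 8 to 11 h was at least 45.6-fold. Yellow-e, a relative of yellow, peaked at 11 h (11799), with 90.0, 172, 3715 and 8090 before and 252 at 16 h.

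Bilin binding proteins carry blue bile pigments. Bilin binding protein 1 was not well above background in the intermolt and was at 254, 116, 535, 1331 and 182 from 0 to 16 h, at least 7.12-fold above the intermolt at 0 h. Its black to white ratio was 39.9 at 8 h and 17.6 at 11 h. Bilin binding protein 2 stood at 22.3, 21.8 and 29.3 up to 4 h, at 212 at 8 h, at 651 at 11 h and at 270 at 16 h, and bilin binding protein 4 at 17.2 to 21.6, 94.8, 547 and 140. Of the 5 genes of this list, 4 rose from 8 to 11 h, beside 12.2% of all genes, and 2 did so with normexp. Bilin binding protein 3 differed, with 705 in the intermolt, 4060 at 0 h, 2735 at 4 h, 407 at 8 h, 839 at 11 h and 2942 at 16 h.

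Of the listed takeout/JHBP genes, relatives of a juvenile hormone carrier, 4 of 7 fell at HCS and 1 rose (beside 21.2% and 14.2% of all genes). From 4 to 16 h 6 of 8 rose and 1 fell (19.4% and 17.2%). AK401241 was at 674 in the intermolt, not well above background at 0 and 4 h, at 51.1 at 8 h and at 49443 and 49787 at 11 and 16 h. The gene was at least 2196-fold higher at 16 h than at 4 h and 968-fold higher at 11 h than at 8 h. AK401142 had 7509, 223, 42.3, 42.0, 681 and 125219, and AK401191 was at 52.3 in the intermolt, 617 at 11 h and 16561 at 16 h, with levels of 7.69 to 15.6 between. Both reached their highest level at 16 h. AK401250 had a peak at either end, with 660 in the intermolt, 33563 at 0 h, 4890, 702 and 885 at 4, 8 and 11 h, and 27445 at 16 h. AK401210 was the gene that fell, from 1465 at 4 h to 19.2 at 16 h, with its highest level at 8 h (3748). The putative carotenoid binding protein 1, almost restricted to white (24.9-fold to 47.6-fold above black), ranged only from 14907 to 69922 over the stages.

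Few of the patterning genes changed. Of 9 tested in these steps, 1 fell at HCS, 2 fell from 0 to 4 h and 1 fell from 4 to 16 h, with 0 rises (beside falls of 21.2%, 14.2% and 17.2% of all genes), and from 8 to 11 h 1 of 11 rose (12.2%). With the scaling on ribosomal proteins 3 rose at HCS. Engrailed, a segment polarity gene, was at 93.1 in the intermolt and 20.3 to 43.3 later. Fringe, which modifies Notch, had 1093, 2476, 914, 725, 594 and 341. Distal-less lay between 9.86 and 50.9, near the detection limit.

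Muscle lies under the epidermis, and all 13 muscle marker genes were well above background at all 6 stages. Their summed level was 951226 in the intermolt, 713508 and 684361 at 0 and 4 h, 1176419 and 1452980 at 8 and 11 h, and 1103056 at 16 h, and their median difference between intermolt and molt was 0.14 (0 genes above and 0 below all molt stages). That sign turned under 3 alternatives: no scaling, scaling on ribosomal proteins, and the white channel alone. Muscular protein 20 moved most, with 93555, 18040, 12058, 13473, 25582 and 91898 in stage order. The summed level was thus lowest at 0 and 4 h, where genes high in the intermolt were also low, and the part of muscle in those differences was not tested.

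The last comparison set the step from intermolt to HCS in the third instar beside the matching step in the fourth instar, whose larvae form the green cryptic pattern at the next molt. The fourth instar arrays held green thorax (Cy3) with eyespot (Cy5) as replicate 1 and green abdomen (Cy3) with V-shaped marking (Cy5) as replicate 2, at the intermolt and 1 h after HCS, on the same slide. Of 3249 genes tested in 1 limma model, 141 differed in their change between the instars with an adjusted p under 0.05 (4.34%), 102 with the higher value of intermolt minus molt in the third instar (3.14%) and 39 with the lower (1.2%). Of the 141, 105 changed in the same direction in both instars, and 98 of these changed less in the third instar, beside 1821 of 2583 among all tested genes. The median absolute log2 change of the 141 was 1.94 in the third instar, against 4.86 in the fourth. Over all tested genes the medians were 0.79 and 1.13. Hours after HCS (0 and 1) and body regions differ between the instars and cannot be told apart from the instar. The residual error came only from the fourth instar pairs, which are of different regions. With the replicate number as a block 0 genes passed, and without either intermolt array of the fourth instar 0 genes passed.

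Cuticular CPR genes gave the highest count of the lists (9 of 27, 7 lower and 2 higher in the third instar). In all 14 of 59 cuticular genes differed, and 3 of 8 pigment genes and 3 of 10 of the chitin list did so. The share of all genes was 4.34% (1.2% lower and 3.14% higher). PxutCPR59B was at 1483 in the intermolt and 212 at 0 h in the third instar, and at 126646 and 122300 in the intermolt and 32.7 and 15.1 at 1 h in the fourth (difference -9.64 ± 0.75 on the log2 scale, limma adjusted p = 0.0297). PxutCPR34 stood at 467 and 401 in the third instar, and at 72466 and 61078 in the intermolt and 223 and 120 at 1 h in the fourth (-8.45 ± 0.64). Both were thus low in the third instar intermolt and high in the fourth instar intermolt. A glucosyl/glucuronosyl transferase was at 3953 and 6031 in the third instar, whereas in the fourth it was at 7.94 and 5.35 in the intermolt and at 16623 and 9111 at 1 h (10.27 ± 0.70).

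The urbain like gene was high in the intermolt of the third instar and low in that of the fourth, with 25695 in the intermolt and 27060 at 0 h, 84.1 and 60.9 in the intermolt of the fourth, and 26304 and 23241 at 1 h (8.36 ± 0.40, limma adjusted p = 0.0235). Chitinase 7 had 2884 and 119192 in the third instar, and 13.7 and 21.3 against 108665 and 80110 in the fourth (7.04 ± 0.55), so it rose in both and the difference lay in the intermolt level. For chitinase 5 the difference was -0.79 ± 0.88, smaller than its error. Yellow rose in the third instar and was lower at 1 h than in the intermolt in the fourth, where it stood at 2155 and 2629 before and 859 and 1039 after (-5.33 ± 0.35, limma adjusted p = 0.0242). Bilin binding protein 1, not well above background in the third instar intermolt, was at 40869 to 57538 on all 4 arrays of the fourth instar.

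**Figure D5:**
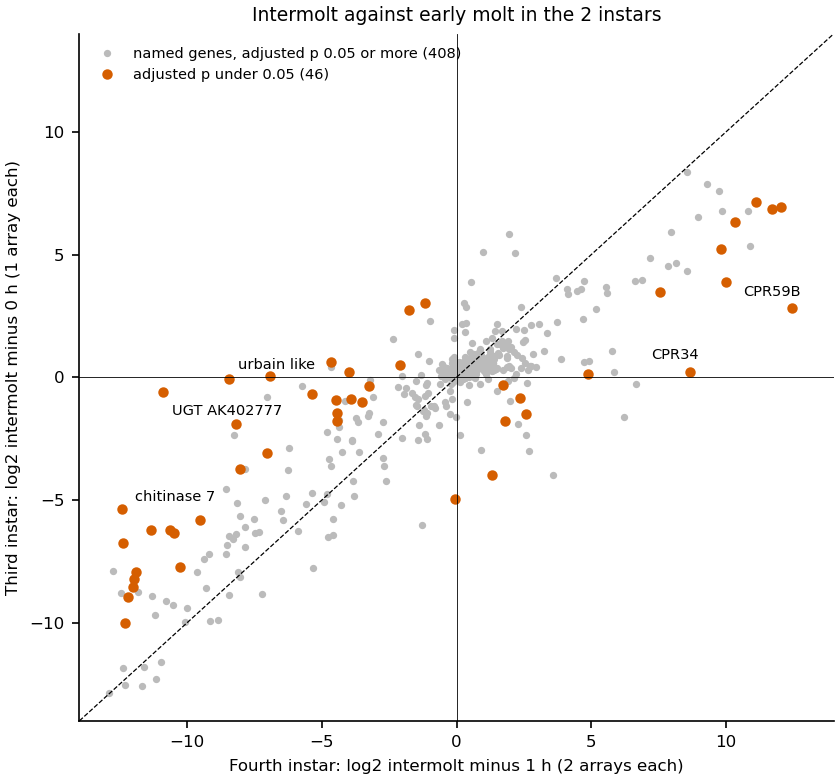
Log2 change (intermolt minus early molt) of 454 named genes in the third instar (1 array per stage, vertical axis) against the fourth instar (2 arrays per stage, horizontal axis), with the line of equal change dashed. Of the 46 named genes with an adjusted p under 0.05 (orange), 42 changed less in the third instar (2214 of 3249 among all tested genes), and the changes of PxutCPR59B, PxutCPR34, the urbain like gene and the transferase AK402777 lie between -0.61 and 2.81 there.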

How the data were processed

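Total RNA of each region was amplified with an oligo-dT T7 primer, labelled with Cy3 or Cy5 and hybridized to a custom Agilent array. The deposited intensity values, as the file headers give them, were background-subtracted and dye-normalized within each array (linear and lowess) by the authors' Feature Extraction software, for which headers and methods name different versions, and were not scaled between arrays. The other deposited columns used were the flags for spots well above background, saturated or outlying. The authors' table of log10 ratios was not used, since a ratio of regions holds no level of a stage.

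*P. xuthus* probes (identifiers starting AK or AB with a number under 500000) were taken, 198 probes with an outlier flag on any array were left out unless their gene had no other, and each channel was scaled to the median 75th percentile of the third instar channels. Names came from the supplementary tables of the study and were matched to 470 genes; 282 of 285 listed genes were on the array. Levels were averaged over probes on the log2 scale. Of 207 calls between stages for the genes named by the rule, 203 had every probe moving the same way.

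Stages were compared with limma 3.58.1 (R 4.3.3) on log2 levels with Benjamini-Hochberg adjustment, over genes well above background in both channels of at least 1 array. Where the lower of both levels lay under the lowest passing signal of its stage, the fold was computed against that signal and is given as "at least". With 1 array per stage, p-values measure only the spread between these arrays, and an exact permutation test of 1 array against 3 cannot go below 0.25, so none was made. The scripts were tested on simulated data. Python 3.11.15, numpy 2.4.6, pandas 2.3.3 and matplotlib 3.10.9 were used. The number of arrays limits the precision.

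The gene lists and the rule for named genes were chosen with earlier results of these data known. The rule picked genes with an adjusted p under 0.05 in the intermolt comparison, the 3 of each list with the largest range and all of the ecdysone list. It also picked the 3 largest rises and falls of each step and the 5 largest differences between instars. Of the 93 genes picked, not all are named in the text. Those left out include glutathione S transferases D8 and S1 and a conserved hypothetical protein of the apical matrix list. Named outside that rule, after their values were seen, were obstructor-A AK401188, both deacetylase genes, osiris 2, osiris 19, dusky-like AK402771, heat shock protein cognate 3, PxutCPG19Bc, PxutCPG20, PxutCPG29, PxutCPG33A, PxutCPH30, yellow-e, bilin binding protein 3, takeout/JHBP AK401210, AK401250 and carotenoid binding protein 1, superoxide dismutase, thioredoxin peroxidase 1 and the genes of the closing section. Alternatives were other scalings, normexp (offset 50), single channels, probes, filters, slide terms, a 3-fold limit and leaving out arrays.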

Additional observations from a re-analysis of the deposited data

Results flagged for a closer look

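The change from the intermolt to the early molt differed between the third and the fourth instar for 141 genes (limma, adjusted p under 0.05, a test of the difference itself). The largest differences among named genes, given as intermolt minus early molt in the third instar less the same value in the fourth, were 10.27 for a glucosyl/glucuronosyl transferase, -9.64 for PxutCPR59B, -8.45 for PxutCPR34, 8.36 for the urbain like gene and 7.04 for chitinase 7, on the log2 scale. For the transferase, PxutCPR59B, PxutCPR34 and chitinase 7 the intermolt level of the third instar lay between the intermolt and the 1 h levels of the fourth. The single arrays of the third instar add nothing to the error of this test, and hours and regions differ between the instars. The calls were not kept with the replicate number as a block, nor without either intermolt array of the fourth instar.

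The probes outside the *P. xuthus* set, most of them designed for *Papilio polytes*, were used in no comparison. In the channels from the intermolt to 16 h, 32.8% to 42.6% of them were well above background. What they hybridized with was not tested.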

How the results depend on the processing

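Between intermolt and molt, 0 genes passed under each alternative except with all 6 arrays and no term for the slide, which gave 1 higher and 2 lower genes, all without a name. Leaving out 0, 4 or 16 h gave 0 in each case. The counts at an unadjusted p under 0.05 ran from 55 (without 4 h) to 379 (6 arrays, no slide term). Genes of the intermolt 2-fold beyond each remaining molt stage numbered 236 to 523 above and 131 to 301 below when 1 stage was left out (523 and 301 without 16 h, 483 and 280 without 0 h), 82 above and 182 below with the scaling on ribosomal proteins, and 61 below with normexp, in place of 222 and 119; these alternatives were chosen after seeing the data. With a 3-fold limit 648, 540, 771 and 365 genes changed in the steps to 0, 4, 16 and 11 h, in place of 1110, 836, 1168 and 654, and with normexp 411 changed from 8 to 11 h. Genes with their highest level in the intermolt numbered 410, and at 4 h 309, with the scaling on ribosomal proteins. At 4 h they were 343 with the 4 arrays of 1 slide, at 11 h 255 with normexp, and at 16 h 250 with no scaling. The 24 step calls of the named gene rule were all kept under the 4 other scalings.

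List medians turned sign for the secretory pathway (-0.17), patterning (-0.35), muscle (-0.40) and all genes (-0.0621) with the scaling on ribosomal proteins, for muscle with no scaling (-0.00998) and in the white channel (-0.35), and for takeout/JHBP (1.07) and CPR (0.41) with only genes well above background on every array, which leaves out genes that are off at a stage. When a stage was left out, also chosen after seeing the data, the takeout/JHBP median ran from -1.17 to 1.22 (without 16 h). Of the other list medians 237 moved by less than the spread and 7 by more. For the intermolt difference of single genes, 181 values under alternatives were checked, which cover only a part of the genes named here. All 181 kept their direction, and their shifts in size were not compared with a spread.

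Genes that differed between instars numbered 294 with no scaling, 279 with normexp (62.0% with the higher value in the third instar, in place of 72.3%), 49 with only genes measured on every array, 528 when probes were tested in place of genes, and 0 to 308 when 1 array of the fourth instar was left out (0 without either intermolt array, 308 and 188 without the 1 h arrays). With the replicate block, the label number of the fourth instar arrays, 0 genes passed (lowest adjusted p 0.0817, 908 at an unadjusted p under 0.05). These numbers stand for different regions, and no source says that they share animals, so they are not a pairing by design. The block leaves the estimates unchanged, since both replicate numbers occur at both stages, so the signs could not change with it. Without either intermolt array all 141 genes kept their sign. The cause of these shifts was not tested. Each stage is 1 array of an unstated number of larvae, and signals under 22.7 to 45.0 are bounds.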

Other observations

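Some named genes outside the gene lists, chosen after their values were seen, also changed strongly in time. A C-type lectin, of a family that binds sugars, was at 137 in the intermolt, 52156 at 0 h, 61979 at 4 h, 16146 at 8 h, 15143 at 11 h and 272 at 16 h. It was high from 0 to 11 h and low at both ends. An organic cation transporter stood at 211 in the intermolt and at 2130 to 5460 at all later stages. A 1-acyl-sn-glycerol-3-phosphate acyltransferase, an enzyme of phospholipid and fat synthesis, was at 53.5 in the intermolt, well above background in 1 channel only at 0 h, not well above background at 4 and 8 h, and at 4457 and 3746 at 11 and 16 h. Its rise from 8 to 11 h was at least 143-fold.

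Of the pigment list, cinnabar, an enzyme of the ommochrome pathway, was at 391 in the intermolt, 35.6 at 0 h, 44.7 at 4 h, not well above background at 8 and 11 h, and at 274 at 16 h, so it was low from 0 to 11 h and high at both ends. Pterin-4a-carbinolamine dehydratase, which regenerates the cofactor of tyrosine synthesis, stood at 3198, 1431, 1795, 6455, 10044 and 7548 in stage order, highest at 11 h.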
